A study of Mus musculus with 9 samples.

Results

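The 42 genes described here are interferon-stimulated genes of the mouse, followed by RNA sequencing in 9 livers on 3 diets. They were chosen by symbol. Of these, 36 are antiviral genes typical of the response to type I interferon and 6 are GTPases typical of the response to interferon gamma (Gbp2, Gbp3, Irgm1, Irgm2, Igtp and Ifi47). All 42 were among the 23337 genes of the count tables and all 42 passed the low-count filter, which left 12587 genes for testing. The livers came from wild-type mice that started their diet at 8 weeks of age, kept it for 12 weeks and were sampled in the fed state. Of the livers, 3 were from a normal diet (ND), 3 from a 60% high fat diet (HFD) and 3 from that HFD with 0.25% hyodeoxycholic acid (HFD_HDCA), a secondary bile acid. All 3 groups share the wild-type genotype and the feeding time, and the series concerns fat accumulation in the liver and invariant NKT cells. Levels are given as CPM, reads on a gene scaled to the size of the library, with 1 value per liver in the order of replicates 1 to 3. Differences between diets are log2 fold changes with their standard errors (SE), and a gene was called higher (rose) or lower (fell) at an adjusted p under 0.05 in edgeR's quasi-likelihood test.

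Type I interferons act on their receptor through the kinases JAK1 and TYK2 and the factor ISGF3, a complex that holds STAT2 and IRF9 and binds the interferon-stimulated response element (ISRE). Interferon gamma acts on its own receptor and through the gamma-activated site (GAS), and its transcripts include the guanylate-binding proteins (GBP) and the immunity-related GTPases (IRG), which coat vacuoles of intracellular parasites and bacteria. The division is not strict, since many of these GTPases also respond to type I interferon. In the liver, hepatocytes as well as Kupffer cells and other non-parenchymal cells carry both receptors.

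A stretch of promoter is shown for 10 picked members, 5 of each class. An ISRE match before the start was a condition for being shown, so the 10 do not stand for all members. Through ISRE and GAS elements genes of these classes are known to be switched on, while the matches shown are of letters only. The sequences come from RefSeq promoters on GRCm38.p6, which run from 250 bases before to 50 bases after a gene's start and were present for 33 of the 42 members. Each is written 5′ to 3′ on the strand of its gene, with capitals marking matches to the ISRE core GAAANNGAAA (or TTTCNNTTTC on the other strand) and to the GAS core TTCNNNGAA, which reads the same on both strands.
Isg15, chr4:156200863-156200908, minus strand: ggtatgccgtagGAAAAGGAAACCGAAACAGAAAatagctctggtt
Ifit1, chr19:34640773-34640825, plus strand: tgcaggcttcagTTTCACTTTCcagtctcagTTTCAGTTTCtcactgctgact
Ifit3, chr19:34583361-34583428, plus strand: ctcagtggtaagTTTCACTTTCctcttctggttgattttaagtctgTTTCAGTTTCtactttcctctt
Oas1a, chr5:120907526-120907635, minus strand: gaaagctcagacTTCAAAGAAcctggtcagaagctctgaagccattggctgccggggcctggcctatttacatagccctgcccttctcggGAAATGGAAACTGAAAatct
Rsad2, chr12:26456551-26456584, minus strand: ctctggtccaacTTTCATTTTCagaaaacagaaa
Gbp2, chr3:142620592-142620625, plus strand: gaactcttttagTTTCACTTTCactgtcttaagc
Gbp3, chr3:142559987-142560026, plus strand: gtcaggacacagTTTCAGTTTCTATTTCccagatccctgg
Irgm1, chr11:48871423-48871462, minus strand: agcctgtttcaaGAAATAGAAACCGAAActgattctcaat
Igtp, chr11:58199499-58199543, plus strand: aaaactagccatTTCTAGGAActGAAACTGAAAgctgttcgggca
Irgm2, chr11:58214890-58214934, plus strand: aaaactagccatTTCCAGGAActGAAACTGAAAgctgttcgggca

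The ISRE core lay in 17 of the 33 member promoters (51.5%), against 3.99% of the promoters of 27025 genes. The GAS core lay in 8 (24.2%), against 9.55% of all promoters, and both cores lay in 6 (18.2%), against 0.614%. By class the ISRE core was found in 12 of 27 antiviral promoters (44.4%) and 5 of 6 GTPase promoters (83.3%), and the GAS core in 6 (22.2%) and 2 (33.3%). Isg15 carried 3 overlapping ISRE matches, which start 78, 72 and 66 bases before its start. Igtp and Irgm2, neighbours on chromosome 11, have windows of 45 bases that are identical at 44, with the substitution T16C (Igtp's base first, positions counted from 1 at the window's 5′ end), which lies inside the GAS core and leaves it intact. These are matches of letters within a window and were not tied to binding in these livers. Dhx58, Zbp1, Usp18, Oas2, Mx1, Mx2, Parp9, Parp14 and Rtp4 had no entry in the promoter table.

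The labelled tissue was clear in the counts, with albumin (Alb) at 59441 to 96557 CPM, and reads on genes ran from 16994353 to 20509203 per library. A few libraries stood apart from their groups. In HFD_HDCA 1 the acute phase gene Saa1 reached 3371 CPM, while HFD_HDCA 2 and 3 had 23.4 and 38.0. In HFD 1 the clock gene Dbp was at 85.8 CPM, with 2.27 and 1.41 in HFD 2 and 3. The macrophage gene Emr1 was at 6.72 CPM in HFD 2 and 112 CPM in HFD 3. The labels name no cage, litter, sex or batch, so such a difference between groups could not be told apart from the diet. The p-values set a difference between diets against the spread of the livers within groups.

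Levels per transcript length are in FPKM, from the authors' Cufflinks tables. Ifitm3, a membrane protein that blocks fusion of viruses in endosomes, had the highest mean over the 9 livers at 367 FPKM, followed by the virion tether Bst2 at 150 FPKM. Lgals3bp, a secreted glycoprotein, came next at 33.5 FPKM and the GTPase Irgm1 at 24.8 FPKM. At the low end, the dynamin-like GTPase Mx1 stood at 0.491 FPKM and the oligoadenylate synthetase Oas3 at 0.243 FPKM. The most abundant members were not those that differed most between diets. Ifitm3 was at 211, 218 and 197 CPM in ND, 236, 242 and 226 in HFD and 332, 211 and 198 in HFD_HDCA. Only HFD_HDCA 1 stood above all other libraries in Ifitm3, and the other HFD_HDCA values fell within the ND range.

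**Figure D1:**
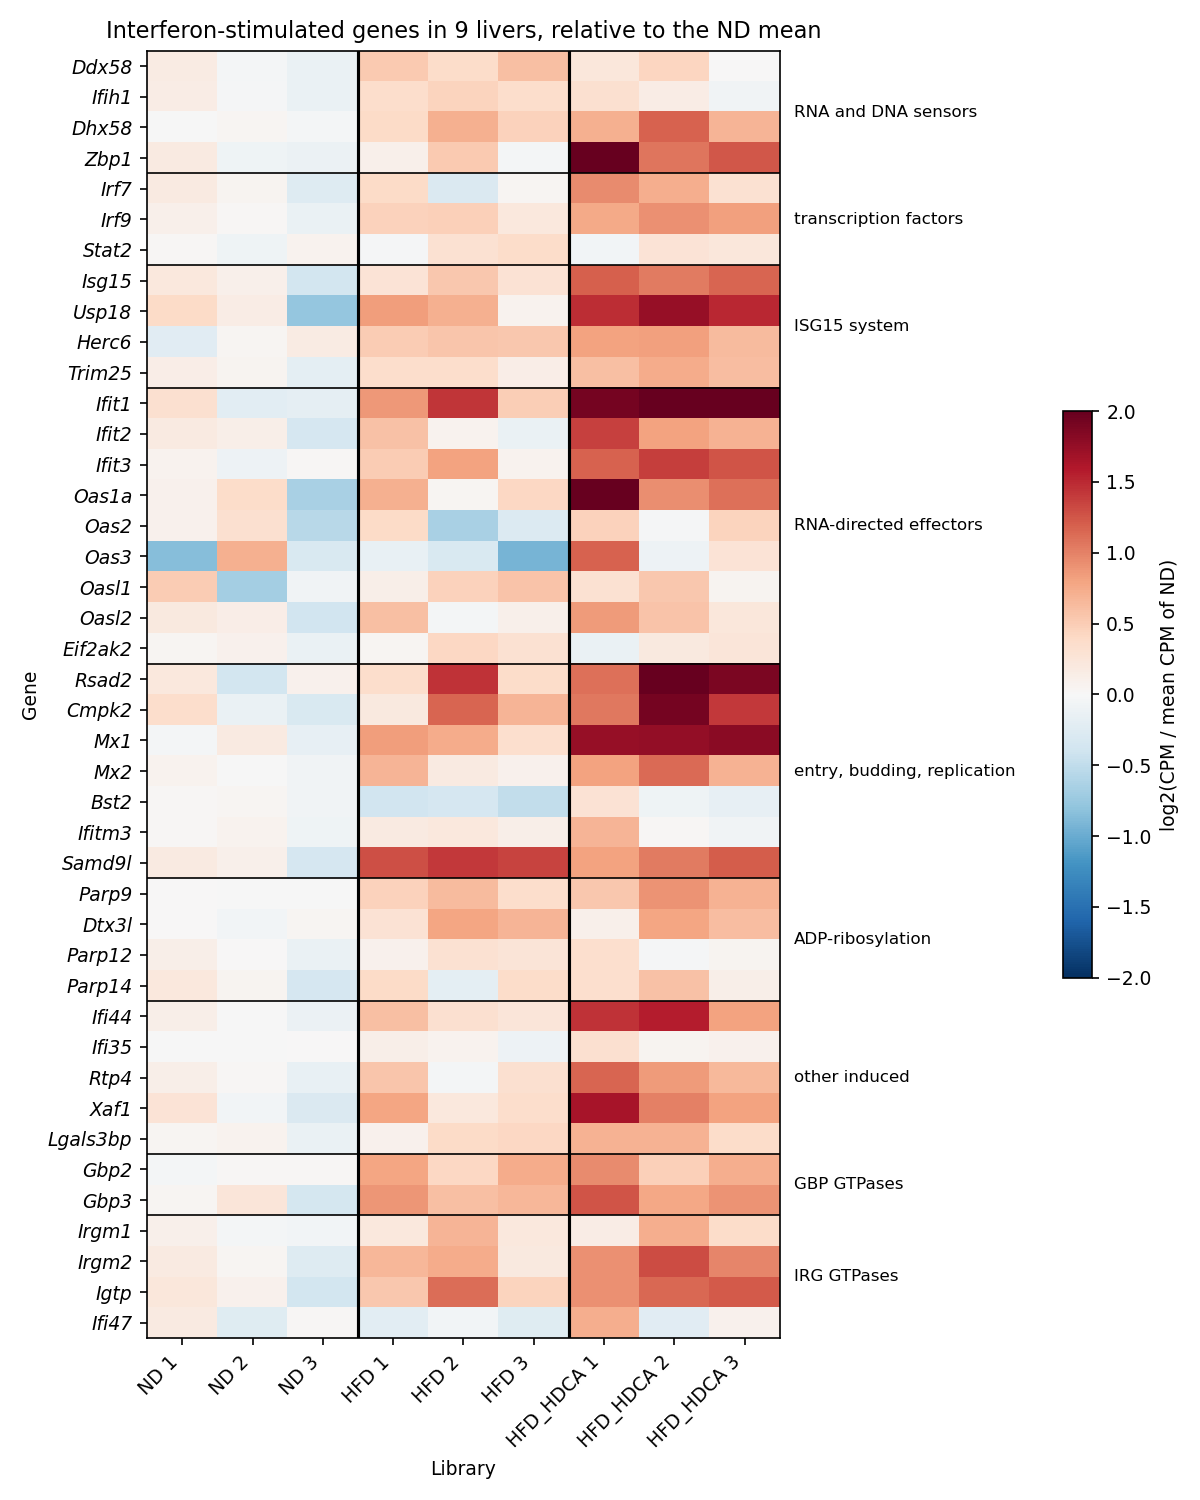
Levels of all 42 members in each of the 9 libraries (columns), as the log2 ratio of a library's CPM to the mean CPM of the ND group, with genes (rows) grouped by role. The colour scale is cut at 2 in either direction, so Ifit1, Oas1a, Rsad2 and Zbp1 values beyond it share its darkest red. All 42 rows have a higher mean in HFD_HDCA than in ND, while Samd9l is darkest red in HFD and Bst2 is bluest there, below the ND mean.

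The first comparison asked how the genes differed between HFD and ND. One member rose, Samd9l, which encodes a cytoplasmic protein that restricts poxviruses and limits translation. Most of the others had small positive differences that did not pass the test. Of the 42 members 1 (2.38%) was called higher at an adjusted p under 0.05, where 0.477% of all tested genes were, and 0 were called lower by edgeR (0.477% of all genes) or by DESeq2. At an unadjusted p under 0.05, 19 members were higher (6.67% of all genes were) and 1, Bst2, was lower (4.83% of all genes). A positive fold change was fitted for 38 of 42 members, against 53.3% of all genes, and the groups did not overlap, with HFD higher, for 22 members, against 10.9% of all genes, and with HFD lower for 1, Bst2, against 9.2%.

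Samd9l, on chromosome 6 from 3372257 to 3399572, stood at 14.8, 14.0 and 10.4 CPM in ND, 32.1, 34.95 and 33.3 in HFD and 23.0, 26.9 and 30.1 in HFD_HDCA. Every HFD library lay above every other library, and every HFD_HDCA library lay above ND. The group means were 13.1 ± 2.35 CPM in ND and 33.5 ± 1.45 CPM in HFD (SD, n = 3 each), and the gene rose by 1.35 ± 0.15 (log2, SE; adjusted p = 0.00403). The call passed in all 9 leave-one-out fits, each without a single library, and in all 9 other fits tried. Bst2, also called tetherin, went the other way, at 137, 138 and 129 CPM in ND, 104, 107 and 95.4 in HFD, and 165, 126 and 121 in HFD_HDCA. All 3 HFD livers were below all others in Bst2, and the log2 difference from ND was -0.40 ± 0.13 (SE, adjusted p = 0.241). Without HFD 1 and HFD_HDCA 1 that difference was called, and Parp9 and Dtx3l were called higher beside Samd9l. All genes called also grew in that fit, to 576 from 120. Leaving out HFD_HDCA 1 alone, a library outside this comparison, gave 208 genes, with Bst2 and Parp9 among them.

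The antiviral members with the next smallest p-values were Herc6, Parp9 and Ifit1. Herc6, the ligase that attaches ISG15 to proteins in mice, stood at 9.58, 11.4 and 12.4 CPM in ND, 15.9, 16.3 and 16.3 in HFD and 19.4, 19.7 and 17.3 in HFD_HDCA. Parp9, the partner of the ubiquitin ligase Dtx3l, had 52.7, 52.1 and 51.8 CPM in ND, 71.7, 81.4 and 66.9 in HFD and 75.8, 96.8 and 84.9 in HFD_HDCA. Ifit1, which binds viral RNA that lacks the methylated cap of the host, had 6.04, 4.17 and 4.28 CPM in ND, 8.77, 13.0 and 6.82 in HFD and 18.1, 23.9 and 19.3 in HFD_HDCA. In each of these genes no HFD library overlapped ND. Their log2 differences between HFD and ND were 0.53 ± 0.12, 0.49 ± 0.12 and 0.98 ± 0.25 (SE), and their adjusted p-values were 0.0841, 0.0928 and 0.121. DESeq2 called all 3 of them, which makes 6 calls with Samd9l, Gbp2 and Igtp.

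None of the 6 GTPases was called between HFD and ND by edgeR, while 5 had an unadjusted p under 0.05 and DESeq2 called 2. Gbp2 stood at 5.57, 5.80 and 5.84 CPM in ND, 9.97, 7.68 and 9.58 in HFD and 11.02, 7.96 and 9.45 in HFD_HDCA. Gbp3 had 5.62, 6.45 and 4.28 CPM in ND, 10.02, 8.28 and 8.60 in HFD and 13.1, 9.36 and 10.1 in HFD_HDCA. In both guanylate-binding protein genes the HFD livers lay above ND and overlapped HFD_HDCA. Their log2 differences between HFD and ND were 0.66 ± 0.17 and 0.72 ± 0.19 (SE), with adjusted p-values of 0.121 and 0.151.

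Igtp (Irgm3), a regulatory IRG protein, stood at 26.4, 24.1 and 17.6 CPM in ND, 32.9, 49.3 and 31.0 in HFD and 42.8, 50.1 and 53.1 in HFD_HDCA. Its neighbour Irgm2 had 50.6, 45.7 and 37.5 CPM in ND, 70.6, 74.7 and 51.1 in HFD and 84.1, 109.6 and 87.4 in HFD_HDCA. The HFD livers exceeded ND in both, by 0.73 ± 0.20 and 0.55 ± 0.17 on the log2 scale (SE), with adjusted p-values of 0.157 and 0.220. Ifi47 was the exception among the GTPases, with 28.3, 21.03 and 25.2 CPM in ND and 21.6, 23.8 and 21.05 in HFD. These values overlapped, and the fitted log2 difference was -0.17 ± 0.21 (SE).

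**Figure D2:**
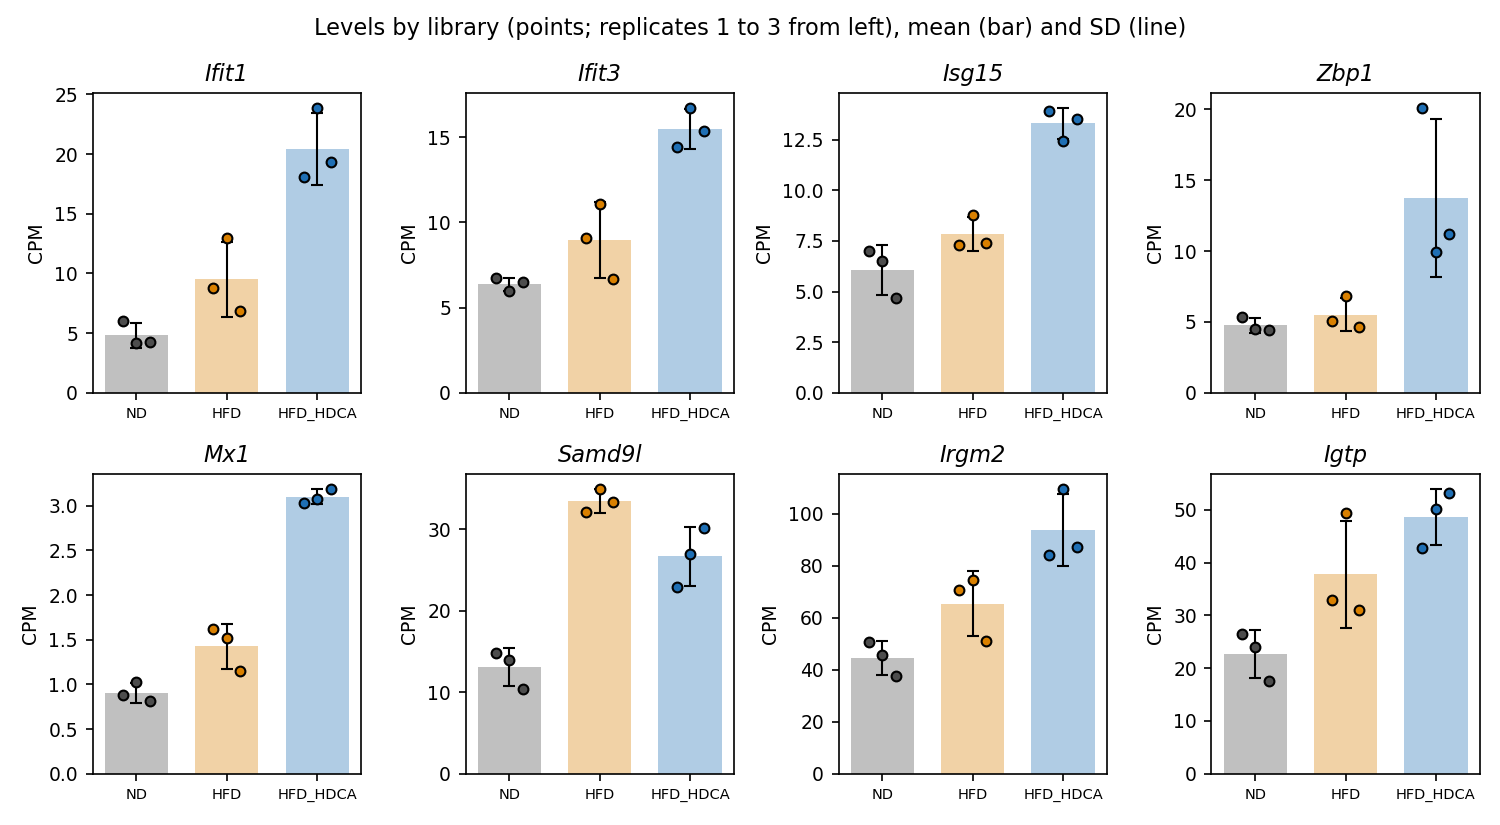
CPM of 8 members by diet, with points for the libraries (replicates 1 to 3 from the left), bars for the group mean and lines for the SD (n = 3 each). Ifit1, Ifit3, Isg15, Zbp1 and Mx1 are highest in all 3 HFD_HDCA livers, Samd9l is highest in all 3 HFD livers, and in Igtp the HFD 2 value of 49.3 lies inside the HFD_HDCA range.

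The next comparison asked what hyodeoxycholic acid added on the HFD. Isg15, Ifit1, Ifit3, Mx1 and the sensor Zbp1 rose, while 0 of the 6 GTPases were called by edgeR or DESeq2. A positive fold change was fitted for 28 of 36 antiviral genes and for all 6 GTPases, against 49.7% of all genes. Of the 42 members 5 (11.9%) were called higher, all antiviral, where 1.67% of all tested genes were. Called lower were 0 by edgeR (1.73% of all genes) and 0 by DESeq2, and 1, Samd9l, was lower at an unadjusted p under 0.05, where 10.4% of all genes were. At an unadjusted p under 0.05, 21 members were higher (11.6% of all genes), of which 1 was a GTPase. The HFD_HDCA livers lay above all HFD livers for 18 members (11.3% of all genes) and below them for 2, Samd9l and the RNA sensor Ifih1 (11.1% of all genes).

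Zbp1, a sensor of left-handed nucleic acid that can trigger necroptosis, stood at 5.36, 4.499 and 4.40 CPM in ND, 5.09, 6.82 and 4.64 in HFD and 20.1, 9.94 and 11.2 in HFD_HDCA. HFD overlapped ND, and all HFD_HDCA livers were above both. Isg15, the ubiquitin-like modifier, had 7.03, 6.50 and 4.69 CPM in ND, 7.31, 8.79 and 7.40 in HFD and 13.9, 12.4 and 13.5 in HFD_HDCA. The 3 HFD_HDCA values of Isg15 lay close together and well above the highest HFD value. The log2 fold changes of HFD_HDCA against HFD were 1.31 ± 0.27 (SE) for Zbp1 and 0.76 ± 0.17 for Isg15, with adjusted p-values of 0.0291 and 0.0379.

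Ifit1, whose livers are given above, rose against HFD by 1.10 ± 0.23 (log2, SE, adjusted p = 0.0349). Ifit3, whose human counterpart stabilises IFIT1 on RNA, stood at 6.71, 5.96 and 6.48 CPM in ND, 9.10, 11.1 and 6.67 in HFD and 14.4, 16.7 and 15.3 in HFD_HDCA. HFD 3 was inside the ND range for Ifit3, while every HFD_HDCA liver was above every HFD liver. Mx1, which blocks replication of influenza virus, had 0.885, 1.03 and 0.810 CPM in ND, 1.62, 1.52 and 1.15 in HFD and 3.03, 3.08 and 3.19 in HFD_HDCA. The groups of Mx1 followed each other without overlap, at a level so low that counting error takes a larger share of the spread. Against HFD the log2 fold changes were 0.79 ± 0.18 (SE) for Ifit3 and 1.11 ± 0.24 for Mx1, with adjusted p-values of 0.0413 and 0.0351.

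None of these 5 calls passed in 5 or more of the 9 leave-one-out fits: Zbp1 passed in 4, Ifit1 in 3 and the other 3 genes in 2 each. Fits with only the HFD and HFD_HDCA libraries called 0 members, and DESeq2 called 12. All genes called were 134 and 1085 there, against 428.

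The 4 GTPases with the smallest p-values against HFD were Irgm2, Ifi47, Igtp and Gbp3. Their log2 differences were 0.52 ± 0.17, 0.42 ± 0.21, 0.37 ± 0.20 and 0.27 ± 0.19 (SE), with adjusted p-values of 0.118, 0.284, 0.306 and 0.418. Irgm2 was the GTPase in which no HFD_HDCA liver overlapped HFD. For Ifi47 the HFD_HDCA livers had 41.0, 21.3 and 26.4 CPM, so its difference rested on HFD_HDCA 1. Samd9l was lower with hyodeoxycholic acid in all 3 livers, with a log2 difference of -0.33 ± 0.15 (SE, adjusted p = 0.222). Bst2 was higher by 0.43 ± 0.13 (SE), with an adjusted p of 0.0955.

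The last comparison, HFD_HDCA against ND, joins both dietary changes and shares its libraries with the others. Here the program was broadly higher: the ISG15 system in full, the IFIT genes, the Rsad2 and Cmpk2 pair, both Mx genes, Irf9 and 4 of the GTPases rose. Of the 42 members 25 (59.5%) were called higher, where 3.65% of all tested genes were, and these were 21 of 36 antiviral genes and 4 of 6 GTPases. Called lower were 0 by edgeR (2.82% of all genes) and 0 by DESeq2, and 0 were lower at an unadjusted p under 0.05 (11.4% of all genes). All 42 members had a positive fitted fold change, against 53.0% of all genes, and for 30 members the groups did not overlap, against 17.8% of all genes. Of the 25 calls, 21 passed in 5 or more of the 9 leave-one-out fits and 11 passed in all 9: Zbp1, Irf9, Isg15, Usp18, Herc6, Ifit1, Ifit3, Mx1, Samd9l, Parp9 and Irgm2. The count fell most when an ND library was left out, to 14 without ND 1, 15 without ND 2 and 12 without ND 3. All genes called fell as well in these fits, from 815 to 196, 344 and 332.

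**Figure D3:**
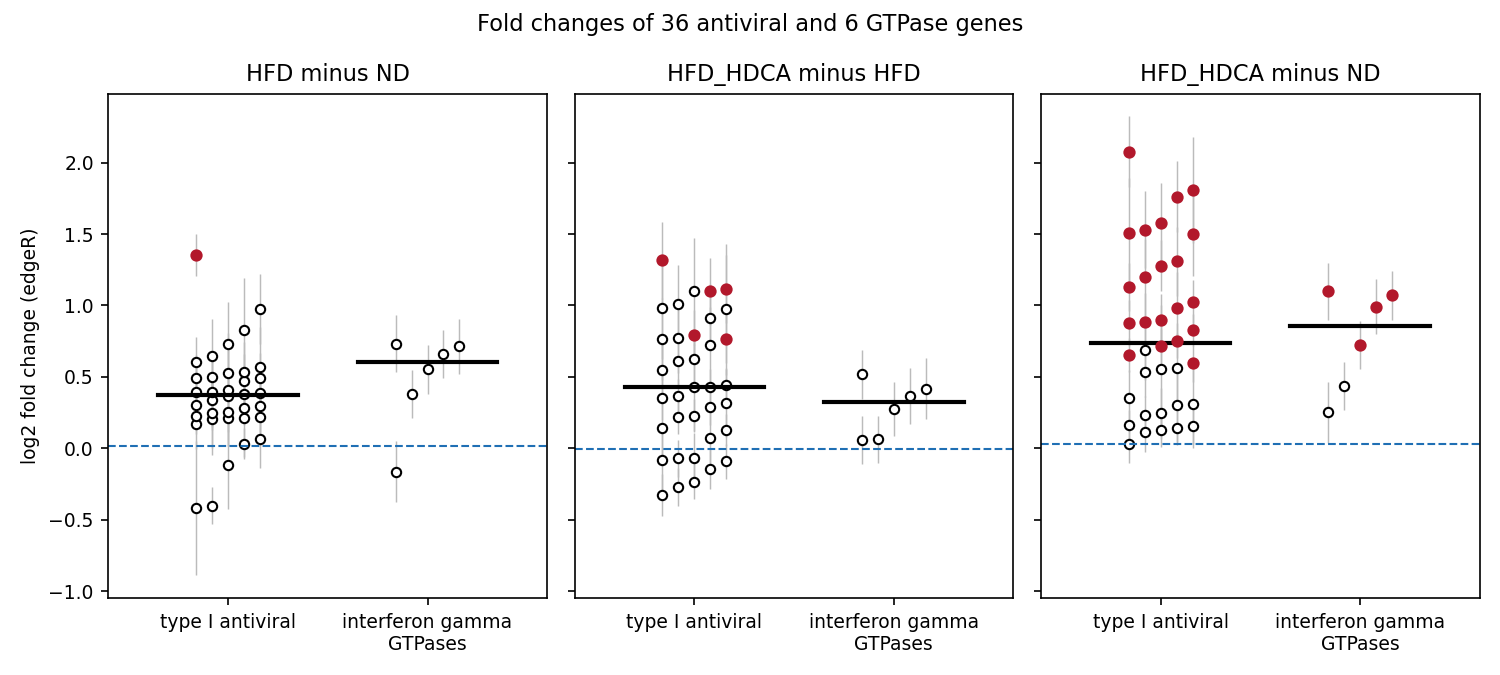
Log2 fold changes (edgeR) of the 36 antiviral and 6 GTPase genes in the 3 comparisons, with filled points at an adjusted p under 0.05, grey lines for the SE, a black bar for the class median and a dashed line for the median of all 12587 genes. Filled points number 1, 5 and 25 from left to right, and all 42 points lie above 0 in HFD_HDCA minus ND.

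Among the 4 sensors, Zbp1 and Dhx58 rose. Dhx58 (LGP2), a helper of the RNA sensor MDA5, stood at 9.21, 9.49 and 8.97 CPM in ND, 12.0, 15.2 and 12.7 in HFD and 15.1, 20.9 and 14.8 in HFD_HDCA. No HFD or HFD_HDCA liver overlapped ND, and the log2 fold change of HFD_HDCA against ND was 0.88 ± 0.16 (SE, adjusted p = 0.0121). Zbp1 rose by 1.53 ± 0.27 (SE, adjusted p = 0.0114). Ddx58 (RIG-I) and Ifih1 (MDA5), the sensors that start interferon production, had log2 differences of 0.23 and 0.15 and were highest in HFD on average, at 33.4 ± 2.76 and 38.0 ± 1.49 CPM (SD, n = 3 each).

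Of the 3 transcription factors, Irf9 rose. Irf9, the DNA-binding subunit of ISGF3, stood at 33.1, 31.2 and 28.1 CPM in ND, 42.4, 43.0 and 35.7 in HFD and 52.0, 58.1 and 54.2 in HFD_HDCA. The 3 groups followed each other without overlap, with a log2 fold change against ND of 0.83 ± 0.11 (SE, adjusted p = 0.00370). Irf7, the factor that amplifies interferon production, had 30.6, 28.1 and 22.6 CPM in ND, 35.2, 22.1 and 27.8 in HFD and 52.5, 44.9 and 33.5 in HFD_HDCA. It did not pass, with a log2 difference of 0.69 ± 0.20 (SE, adjusted p = 0.0743). Stat2, the partner of Irf9 in ISGF3, was at 65.0 ± 3.59 CPM in ND and 72.6 ± 8.54 in HFD_HDCA (SD, n = 3 each), and these groups overlapped.

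All 4 genes of the ISG15 system rose. Usp18, the protease that removes ISG15 and restrains the type I receptor, stood at 6.71, 5.69 and 3.01 CPM in ND, 9.15, 8.38 and 5.37 in HFD and 14.3, 17.3 and 14.6 in HFD_HDCA. Trim25, a ligase that acts on RIG-I, had 116, 111 and 93.0 CPM in ND, 136, 136 and 117 in HFD and 161, 178 and 164 in HFD_HDCA. In both genes every HFD_HDCA liver was above the 6 others. The log2 fold changes against ND were 1.58 ± 0.28 (SE, adjusted p = 0.0119) for Usp18, 1.13 ± 0.17 (adjusted p = 0.00558) for Isg15, 0.75 ± 0.12 (adjusted p = 0.00814) for Herc6 and 0.65 ± 0.12 (adjusted p = 0.0128) for Trim25.

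Among the 9 RNA-directed effectors, all 3 IFIT genes and Oas1a rose. Ifit1 had the largest fold change of all members, 2.08 ± 0.25 (log2, SE; adjusted p = 0.00194). Its mean was 4.83 ± 1.05 CPM in ND and 20.4 ± 3.04 CPM in HFD_HDCA (SD, n = 3 each). Ifit3 rose by 1.28 ± 0.18 (SE, adjusted p = 0.00421). Ifit2, its neighbour on chromosome 19, stood at 5.20, 4.99 and 3.64 CPM in ND, 6.93, 4.85 and 4.22 in HFD and 11.9, 8.02 and 7.46 in HFD_HDCA. HFD overlapped ND for Ifit2, and the call (log2 fold change 0.98 ± 0.25, adjusted p = 0.0458) passed in 2 of 9 leave-one-out fits.

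Oas1a, a synthetase of the second messenger that activates RNase L, had 1.82, 2.22 and 1.10 CPM in ND, 2.82, 1.77 and 2.29 in HFD and 7.81, 3.25 and 3.67 in HFD_HDCA. HFD_HDCA 1 was far above the rest, and the call (1.51 ± 0.38, SE, adjusted p = 0.0448) was lost without HFD 1 and HFD_HDCA 1 (adjusted p = 0.0854) and passed in 3 of 9 leave-one-out fits. Oas2, Oas3, Oasl1 and Oasl2 had log2 differences of 0.31 to 0.57 and did not pass. Eif2ak2 (PKR), the kinase that halts translation on double-stranded RNA, was at 21.5 ± 1.76 CPM in ND and 23.3 ± 3.14 in HFD_HDCA (SD, n = 3 each), within each other's spread.

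Of the 7 genes that act on entry, budding or replication, 5 rose. Rsad2 (viperin), which makes a chain-terminating nucleotide, stood at 9.84, 6.61 and 9.02 CPM in ND, 10.9, 23.2 and 10.99 in HFD and 18.3, 39.7 and 31.2 in HFD_HDCA. Cmpk2, the mitochondrial nucleotide kinase encoded beside it, had 7.18, 5.10 and 4.57 CPM in ND, 6.45, 12.6 and 9.01 in HFD and 11.6, 21.2 and 14.9 in HFD_HDCA. In both, HFD 2 was the highest HFD liver and above HFD_HDCA 1, and HFD_HDCA 2 was the highest of all. They rose against ND by 1.81 ± 0.37 (SE, adjusted p = 0.0257) and 1.499 ± 0.29 (adjusted p = 0.0184).

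The log2 rises of Mx1 and Samd9l were 1.76 ± 0.25 (SE, adjusted p = 0.00421) and 1.03 ± 0.15 (adjusted p = 0.00494). Mx2, annotated as a polymorphic pseudogene, had 4.27, 4.07 and 3.88 CPM in ND, 6.50, 4.60 and 4.32 in HFD and 7.09, 8.89 and 6.56 in HFD_HDCA. Its HFD_HDCA livers were above all others, by 0.88 ± 0.20 against ND (SE, adjusted p = 0.0302), a call that 3 of 9 leave-one-out fits kept. Bst2 and Ifitm3, the most abundant members, had log2 differences of 0.03 ± 0.13 and 0.25 ± 0.18 (SE) and overlapped ND.

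Of the 4 genes for ADP-ribosylation and its partner ligase, Parp9 rose by 0.72 ± 0.12 (SE, adjusted p = 0.00811). Dtx3l, which forms a complex with Parp9 and lies head to head with it, stood at 49.1, 46.9 and 49.7 CPM in ND, 59.6, 84.0 and 77.4 in HFD and 52.3, 83.9 and 74.7 in HFD_HDCA. HFD 1 and HFD_HDCA 1 were the lowest livers of their groups for Dtx3l, whose adjusted p was 0.0960. Parp12 and Parp14, mono-ADP-ribosyltransferases, had log2 differences of 0.13 ± 0.12 and 0.36 ± 0.19 (SE).

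Of the 5 other induced genes, 4 rose. Ifi44 stood at 2.24, 2.06 and 1.91 CPM in ND, 3.14, 2.58 and 2.45 in HFD and 5.63, 6.16 and 3.61 in HFD_HDCA. Rtp4, a negative regulator of the type I response, had 10.8, 10.1 and 9.02 CPM in ND, 14.6, 9.70 and 12.4 in HFD and 22.4, 18.1 and 15.6 in HFD_HDCA. Xaf1, an antagonist of the apoptosis inhibitor XIAP, had 4.01, 3.20 and 2.72 CPM in ND, 5.74, 3.84 and 4.22 in HFD and 10.4, 6.62 and 5.78 in HFD_HDCA. In these 3 genes every HFD_HDCA liver was above every other liver.

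Lgals3bp was at 77.9, 79.5 and 69.0 CPM in ND, 79.9, 98.3 and 101 in HFD and 122, 122 and 97.6 in HFD_HDCA, so HFD and HFD_HDCA overlapped. The log2 fold changes against ND were 1.31 ± 0.24 (SE, adjusted p = 0.0132) for Ifi44, 1.20 ± 0.27 (adjusted p = 0.0275) for Xaf1, 0.90 ± 0.18 (adjusted p = 0.0186) for Rtp4 and 0.59 ± 0.13 (adjusted p = 0.0264) for Lgals3bp. Ifi35, which binds the factor Nmi, differed by 0.16 ± 0.11 (SE).

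Among the GTPases, Igtp rose against ND by 1.10 ± 0.20 (SE, adjusted p = 0.0129), Irgm2 by 1.07 ± 0.17 (adjusted p = 0.00786), Gbp3 by 0.99 ± 0.19 (adjusted p = 0.0163) and Gbp2 by 0.72 ± 0.17 (adjusted p = 0.0306). Irgm2 passed in all 9 leave-one-out fits, Igtp in 8, Gbp3 in 7 and Gbp2 in 4. The Gbp2 call was lost without HFD 1 and HFD_HDCA 1 (adjusted p = 0.0640). Irgm1, a regulatory IRG protein known for its part in autophagy, stood at 63.2, 57.1 and 56.7 CPM in ND, 68.0, 94.0 and 68.6 in HFD and 65.5, 97.9 and 76.2 in HFD_HDCA. No HFD or HFD_HDCA liver overlapped ND for Irgm1, and its log2 difference of 0.44 ± 0.17 (SE) had an adjusted p of 0.135. Ifi47 differed by 0.25 ± 0.21 (SE), with overlapping livers.

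Set side by side, both classes had positive medians in each comparison, although in HFD against ND 1 of 36 antiviral genes and 0 of 6 GTPases were called, and in HFD_HDCA against HFD 5 and 0. The median log2 fold change of the antiviral genes was 0.37 in HFD against ND, 0.43 in HFD_HDCA against HFD and 0.74 in HFD_HDCA against ND. The corresponding GTPase medians were 0.61, 0.32 and 0.86, and the medians of all tested genes 0.02, -0.00 and 0.03. The mean log2 CPM of a class, taken relative to each gene's mean over the 9 livers, separated the 3 diets in both. The antiviral score was -0.27, -0.35 and -0.55 in ND, 0.02, 0.02 and -0.13 in HFD and 0.50, 0.46 and 0.30 in HFD_HDCA. The GTPase score was -0.28, -0.38 and -0.56 in ND, 0.08, 0.18 and -0.06 in HFD and 0.42, 0.30 and 0.31 in HFD_HDCA. ND 3 was the lowest ND liver and HFD 3 the lowest HFD liver in both scores. No test was made of the difference between classes, whose members were chosen with earlier results known and number 36 and 6. Without HFD 1 and HFD_HDCA 1 the GTPase median against HFD was 0.17.

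**Figure D4:**
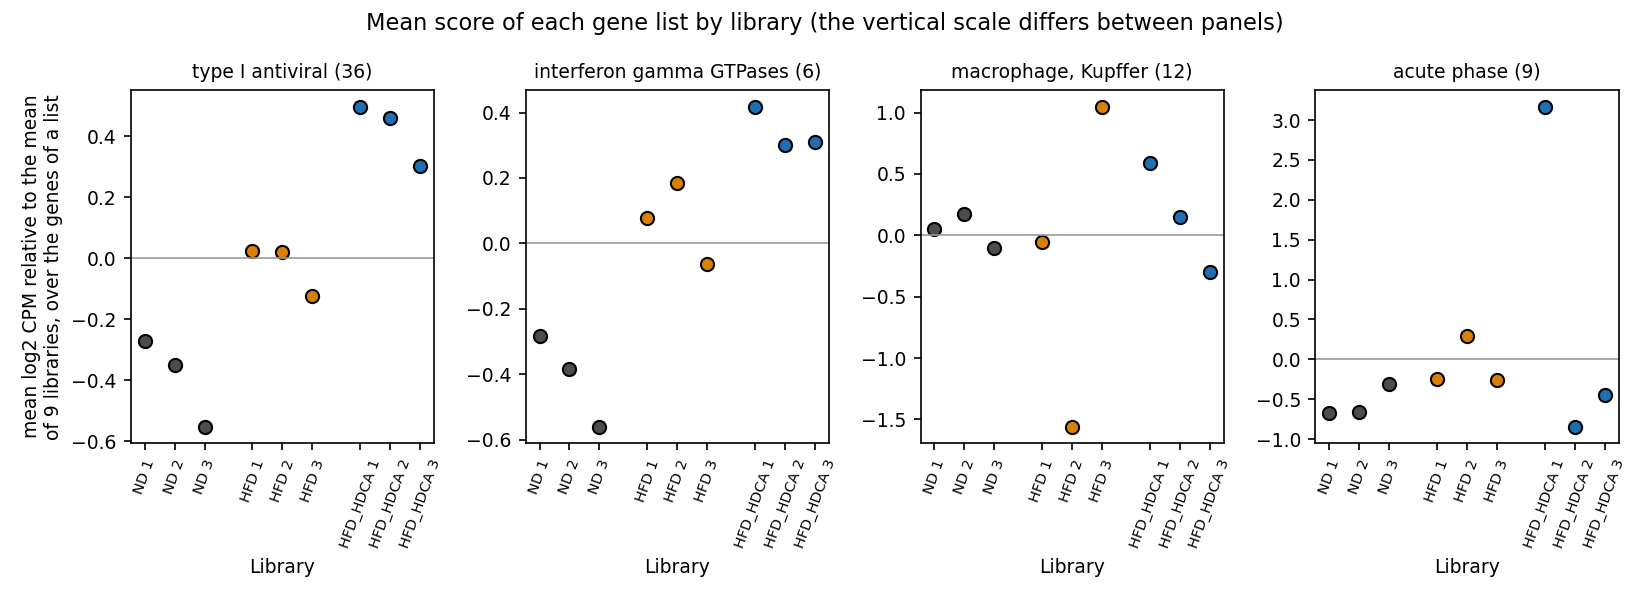
Mean log2 CPM of the 36 antiviral genes, 6 GTPases, 12 macrophage markers and 9 acute phase genes in each library, relative to each gene's mean over 9 libraries. The vertical scale differs between panels. The antiviral and GTPase scores step up from ND to HFD to HFD_HDCA, while the macrophage score falls to -1.56 in HFD 2 and the acute phase score reaches 3.17 in HFD_HDCA 1.

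Members did not rank the livers of a group alike. HFD_HDCA 1, with its high acute phase genes, was the highest HFD_HDCA liver for 16 antiviral genes, among them Zbp1, Irf7, Isg15, Oas1a, Bst2, Ifitm3 and Xaf1, and for the GTPases Gbp2, Gbp3 and Ifi47. It was the lowest for 13 antiviral genes, among them Irf9, Ifit1, Ifit3, Rsad2, Cmpk2 and Dtx3l, and for Irgm1, Irgm2 and Igtp. In HFD, liver 2 was the highest for 18 antiviral genes and the lowest for 8, among them Irf7, Oas1a, Oasl2, Rtp4 and Xaf1. The GBP genes and the IRG genes also parted there: HFD 2 was the highest HFD liver for all 4 IRG genes and the lowest for both GBP genes. HFD_HDCA 2 was likewise the highest of its group for Irgm1 and Irgm2 and the lowest for both GBP genes. The part of the acute phase response or of cell composition in these orders was not tested.

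The 42 members lie on 14 chromosomes, and 18 of them form 10 pairs of neighbours within 100 kb (GENCODE M21, GRCm38). Rsad2, on chromosome 12 from 26442746 to 26456452, and Cmpk2, from 26469204 to 26479837, are transcribed away from each other across 12.751 kb and had their highest values in the same livers. Ifit2, Ifit3 and Ifit1 follow each other on chromosome 19 between 34550694 and 34650009. Oas2 and Oas3 lie 3.244 kb apart on chromosome 5 and neither was called, while Oas1a, 118.594 kb further on, was. Among neighbours within 100 kb, Parp9 was called between HFD_HDCA and ND and Dtx3l was not, so neighbours did not always share a call. Some counts cannot be assigned with certainty. Igtp and Irgm2 share 162 exon bases on the same strand, Parp9 and Dtx3l 458 on opposite strands, Irf9 and Rnf31 123, Ifi47 and Olfr56 111, and Irf7 and Phrf1 45. Members of the Ifit, Oas, Gbp, Irgm and Mx families also resemble each other in sequence, and reads that matched several places were not counted.

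The interferons themselves were hardly seen. Of 12 genes listed as ligands, Il18 and Il12b among them, 8 had 0 reads in all 9 libraries, including Ifnb1, Ifna2 and Ifne. There 3 counts, the limit that a count of 0 allows, correspond to 0.152 to 0.182 CPM. Reads that matched several places were not counted for these genes either. Ifng, encoding interferon gamma, had 7 reads in total and at most 0.180 CPM. Il18, a cytokine that induces interferon gamma, was the ligand gene that could be tested, at 14.8, 14.9 and 13.4 CPM in ND and 14.9, 7.90 and 10.3 in HFD_HDCA. These groups overlapped. Transcripts of the 8 genes without reads were not detected in whole liver at this depth. This does not show that they were absent from every cell.

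Of 8 receptor and kinase genes tested, 1 rose with hyodeoxycholic acid on the HFD and 1 rose between HFD_HDCA and ND. Of all genes 1.67% and 3.65% rose in these comparisons. In HFD against ND edgeR and DESeq2 called 0, and 1 was lower at an unadjusted p under 0.05 (4.83% of all genes). Ifnar2, a chain of the type I receptor, stood at 72.3, 77.1 and 66.9 CPM in ND, 66.0, 51.5 and 55.6 in HFD and 98.6, 85.8 and 97.8 in HFD_HDCA. The groups did not overlap and HFD was the lowest, and HFD_HDCA exceeded HFD by 0.70 ± 0.12 (log2, SE; adjusted p = 0.0142), a call kept by 6 of 9 leave-one-out fits. Ifngr2, a chain of the interferon gamma receptor, had 16.9, 21.1 and 14.3 CPM in ND, 20.5, 18.6 and 20.8 in HFD and 30.4, 26.6 and 22.9 in HFD_HDCA. It rose against ND by 0.61 ± 0.16 (SE, adjusted p = 0.0459), a call kept by 2 of 9.

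Of 20 signalling genes tested, 2 rose (3.65% of all genes) and 1 fell (2.82%) between HFD_HDCA and ND. In the other comparisons edgeR called 0, while DESeq2 called 1 in HFD against ND and 4 in HFD_HDCA against HFD. At an unadjusted p under 0.05, 3 signalling genes were higher in HFD against ND (6.67% of all genes). In HFD_HDCA against HFD 5 were higher (11.6% of all genes) and 2 lower (10.4%) at that threshold. Irf1, a factor induced by interferon gamma, rose by 0.68 ± 0.14 (SE, adjusted p = 0.0227) and Trex1, a DNA exonuclease that limits DNA sensing, by 0.67 ± 0.18 (adjusted p = 0.04999). The calls of Irf1, Irf2 and Trex1 passed in 7, 4 and 1 of the 9 leave-one-out fits. Irf2, a factor that opposes Irf1 at many promoters, stood at 55.2, 42.2 and 57.3 CPM in ND, 59.4, 43.4 and 42.7 in HFD and 32.1, 29.6 and 33.2 in HFD_HDCA. All HFD_HDCA livers were below all others in Irf2, which fell by 0.71 on the log2 scale against ND (SE 0.16, adjusted p = 0.0278).

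Of 43 other type I targets tested, 7 rose between HFD_HDCA and ND (3.65% of all genes did) and 0 fell (2.82% of all genes). They were Ifi27 (listed as Ifi27l1), Ifit3b (listed as I830012O16Rik), Oas1c, Tor3a, Trim34a, Plscr1 and Ube2l6, with log2 fold changes from 0.53 to 2.42. Of 9 leave-one-out fits, Ifi27 passed in 7, Ifit3b in 5, Oas1c in 4, Tor3a, Plscr1 and Ube2l6 in 3 each, and Trim34a in 2. Ifi27, a mitochondrial protein gene, stood at 71.5, 62.7 and 50.1 CPM in ND, 65.3, 77.7 and 54.4 in HFD and 181, 111 and 115 in HFD_HDCA. By edgeR it was the 1 gene of this list called against HFD, at 1.04 ± 0.21 (SE, adjusted p = 0.0317), where 1.67% of all genes rose. That call was kept by 5 of 9 leave-one-out fits, and DESeq2 called 4 genes of the list. In HFD against ND 0 of the 43 were called by edgeR and DESeq2 called 2. At an unadjusted p under 0.05, 8 were higher there, where 6.67% of all genes were.

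Of 26 other interferon gamma targets tested, 5 rose between HFD_HDCA and ND (3.65% of all genes did) and 0 fell (2.82% of all genes). The 5 were Iigp1, Tap1, Cxcl10, Gbp11 and Cd274. Iigp1, an effector IRG GTPase, stood at 331, 382 and 321 CPM in ND, 423, 436 and 355 in HFD and 710, 606 and 589 in HFD_HDCA. It rose by 0.88 ± 0.13 against ND (SE, adjusted p = 0.00592) and by 0.65 ± 0.13 against HFD (adjusted p = 0.0313). That was the 1 call of this list against HFD, by edgeR (1.67% of all genes rose) and by DESeq2. Tap1, the peptide transporter of antigen presentation, rose by 0.83 ± 0.14 against ND (SE, adjusted p = 0.00868). Against ND, Iigp1 and Tap1 passed in all 9 leave-one-out fits, Cxcl10 in 6, and Gbp11 and Cd274 in 3 each, while the Iigp1 call against HFD passed in 3. In HFD against ND 0 of the 26 were called by edgeR and DESeq2 called 3. At an unadjusted p under 0.05, 6 were higher there (6.67% of all genes) and 1 was lower (4.83% of all genes).

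Markers of other cell types were set beside the members. By edgeR, 0 of 12 macrophage, 2 plasmacytoid dendritic cell, 7 T, NK and NKT cell, 4 B cell, 2 neutrophil, 7 endothelial and 5 stellate cell markers were called in any comparison. In HFD_HDCA against ND, where 25 members were called, an unadjusted p under 0.05 was reached by 0 macrophage markers. Higher were 1 plasmacytoid, 1 T, NK and NKT cell, 3 B cell, 1 neutrophil and 1 endothelial marker, against 14.8% of all genes. Lower were 1 plasmacytoid, 1 T, NK and NKT cell, 2 endothelial and 1 stellate cell marker, against 11.4% of all genes. DESeq2 called Zbtb16 and Reln, both lower. Summed macrophage markers ran from 623 to 735 CPM in ND, 232 to 1301 in HFD and 563 to 1044 in HFD_HDCA. Summed neutrophil markers were 12.7 CPM in HFD_HDCA 1 and at most 2.71 in every other liver. HFD 2, the liver with the lowest macrophage sum, was the highest HFD liver for 18 antiviral and all 4 IRG genes and the lowest for 8 antiviral and both GBP genes.

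Summed B cell markers were 2.20 to 3.64 CPM in ND, 2.02 to 3.63 in HFD and 4.87 to 7.45 in HFD_HDCA, so all 3 HFD_HDCA livers were above all others. The plasmacytoid marker Siglech was at most 1.70 CPM. In bulk liver, fewer cells of a type and less RNA per cell cannot be told apart, and the part of cell composition in the members' differences was not tested. Of 6 hepatocyte markers, edgeR called 2 between HFD_HDCA and ND, both lower (2.82% of all genes were). Cps1, of the urea cycle, and Hnf4a fell by 1.11 and 0.48 on the log2 scale. The Cps1 call passed in all 9 leave-one-out fits and the Hnf4a call in 2. The other 4 had positive log2 differences, 0.38 for Alb, 0.45 for Apoa1, 0.29 for Ttr and 0.09 for Serpina1c, and DESeq2 called Apoa1 and Ttr higher.

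**Figure D5:**
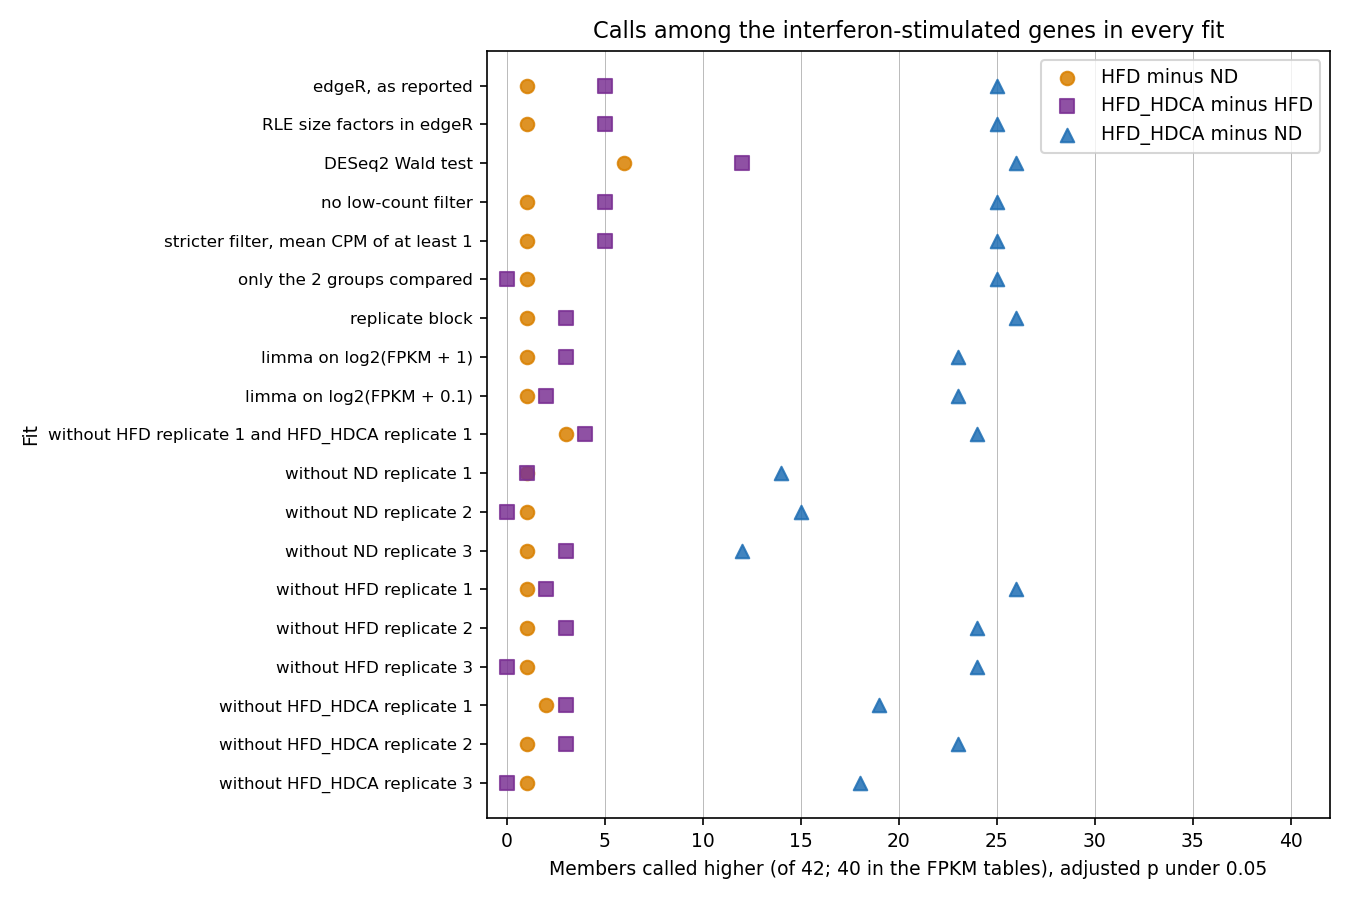
Number of members called higher (of 42, or 40 in the FPKM tables) in each of 19 fits and 3 comparisons. HFD_HDCA minus ND stays between 12 and 26, HFD_HDCA minus HFD between 0 and 12 and HFD minus ND between 1 and 6.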

How the data were processed

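RNA from 9 livers was sequenced, and the sample titles gave each liver its diet and number. HTSeq made the deposited counts, going by the names that the authors gave these tables, and the values are whole and unscaled. Those names also hold the word antisense, and the strand setting is not given in the sources used here. The authors also deposited gene tables whose values are FPKM, fragments scaled by transcript length and library, per the file headers. TopHat 1.3.2, Cufflinks 2.0.2 and mm10 stand in the submitters' processing notes, without roles. Between 63.9 and 72.1% of the reads of a file lay on genes, and the classes that name no gene were kept out of library sizes and tests. Of the reads, 13.3 to 19.4% were not uniquely aligned and 0.813 to 1.69% were ambiguous between genes.

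Counts were analysed with edgeR 4.0.16 in R 4.3.3. The filter on low values was filterByExpr at its minimum of 10, libraries were scaled by TMM, and all 9 libraries entered one quasi-likelihood fit with a term for each diet and robust estimation. Two-sided p-values received Benjamini-Hochberg adjustment over the 12587 genes tested. DESeq2 1.42.0 and limma 3.58.1, on log2(FPKM + 1) and log2(FPKM + 0.1) for genes with a mean of at least 0.5 FPKM, were alternatives beside other filters and size factors. The fit was tested on simulated data. FPKM values of failed status were treated as missing, and rows with the same symbol were summed. Floors and counts cover counting error only, since the reads carry no molecular identifiers.

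The 42 members and the gene lists were chosen with earlier results of these data known. Members called changed, and in each comparison the 4 with the smallest p-values in each class, are given with fold changes. Their livers, and those of the most abundant member of each role, are given 1 by 1. Other genes were taken from fixed lists of ligands, receptors, signalling genes, further targets and cell markers, and are named where called or where their level defines a statement. Older symbols were matched through RefSeq synonyms. A promoter motif was counted for a gene when any of its listed starts had it. A result for a signalling gene is not reported here.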

Additional observations from a re-analysis of the deposited data

How the results depend on the processing

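With DESeq2, members called higher numbered 6 in HFD against ND and 12 in HFD_HDCA against HFD, and all genes called 380, 1085 and 1398 in the order of the comparisons, against 120, 428 and 815. Fits of the HFD and HFD_HDCA libraries alone called 0 members and 134 genes. On log2(FPKM + 1), 3 members and 482 genes in all were called against HFD. The antiviral and GTPase medians were 0.22 and 0.16 against HFD and 0.58 and 0.56 for HFD_HDCA against ND. On log2(FPKM + 0.1), 2 members and 491 genes in all were called, with medians of 0.28 and 0.18 against HFD. That scale moved the median of all genes to 0.11 in HFD against ND and -0.11 in HFD_HDCA against HFD. In the FPKM fits higher genes made up 27.6 and 27.1% of calls in HFD_HDCA against HFD, against 49.1% in the counts, and 60.2 and 61.9% in HFD against ND, where 60 of 120 calls in the counts were higher.

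Without HFD 1 and HFD_HDCA 1 together, 3 members were called higher and 1 lower in HFD against ND and 4 higher in HFD_HDCA against HFD, and all genes called were 576 and 977. The GTPase median was then 0.17 against HFD and 0.71 for HFD_HDCA against ND. Leaving out each library in turn gave 1 to 2 members higher and 0 to 1 lower (32 to 226 genes), 0 to 3 members higher (127 to 672 genes) and 12 to 26 members higher (196 to 1213 genes) in the 3 comparisons. The antiviral medians then ran from 0.28 to 0.44, 0.36 to 0.51 and 0.71 to 0.82, and the GTPase medians from 0.47 to 0.66, 0.16 to 0.38 and 0.71 to 0.91. For single genes, 643 of 752 alternative values kept their direction and their side of the threshold, 102 lost the call, 7 gained it and 0 reversed; the cause was not tested.

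The replicate numbers were not used for pairing: over 9 pairs of same-numbered libraries, deviations correlated between -0.149 and 0.153, and 1 pair exceeded 0.1. Of the 9 libraries, 3 correlated best with their own number. With the replicate block, 1, 3 and 26 members were called higher, and all genes called were 82, 328 and 715, against 120, 428 and 815.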

Other observations

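For the member with the smallest p-value in each class, the genes outside the members with the most similar log2 CPM over the 9 libraries were listed among 12545 genes, as a description. For Samd9l these were Cyp2b9 (Pearson r = 0.985), Slc16a7, Bcar1, Gpc1 and Hao2 (0.949). For Irgm2 they were Rrp36 (0.990), Atl2, 2610019F03Rik, Pex19 and Ilvbl (0.949). The points are 3 libraries of each of 3 diets, and no test was made.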
